A study of Mus musculus with 4 samples.

Results

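The genes described here are 10 imprinted genes with known roles in growth: *H19*, *Igf2*, *Mest*, *Dlk1*, *Meg3*, *Peg3*, *Cdkn1c*, *Plagl1*, *Grb10* and *Ndn*. Each was found by its symbol, once, among the 32285 genes of the deposited tables. The genes were chosen by their measured UMI levels across these same libraries and cell classes, so every level below is a description and carries no test. They were followed in single-cell RNA sequencing (scRNA-seq) of tibial muscle from *Nse-Bmp4* mice of the C57BL/6 strain, 6 to 8 weeks of age, in which the promoter of neuron specific enolase (*Nse*) drives *Bmp4*. These mice are a model of heterotopic ossification (HO), the formation of cartilage and bone in soft tissue, which follows cardiotoxin injury. The 4 libraries were Uninjured muscle and muscle taken 1 day, 3 days or 7 days after the injury, written as 1 dpi, 3 dpi and 7 dpi. All 4 carried the transgene, none without it was analysed here, and each was made from 3 muscles mixed together. Each time point was therefore 1 library without replicates, and a difference between time points cannot be told apart from a difference between libraries.

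An imprinted gene is transcribed mainly from the copy inherited from one parent. Many such genes act on the growth of the fetus and are largely silenced in tissues after birth, although stem and progenitor cells can keep some of them. *Igf2* encodes a growth factor, and *H19* is a long noncoding RNA from the same domain that is transcribed from the other parental copy. *Dlk1* and *Meg3* form a similar pair of a protein and a noncoding RNA. Neighbouring members share a region, but the counts do not separate the parental copies, so imprinting itself was not measured.

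The members lie on 5 chromosomes of the mouse genome (GENCODE M21 on GRCm38). *H19* (7:142575529-142578143, minus strand) and *Igf2* (7:142650766-142666816, minus strand) are neighbours, with *Cdkn1c* (7:143458339-143461050, minus strand) further along the same chromosome. *Peg3* (7:6703892-6730431, minus strand) and *Ndn* (7:62346569-62350262, plus strand) are on chromosome 7 too, apart from these. *Dlk1* (12:109452823-109463336, plus strand) and *Meg3* (12:109541001-109571726, plus strand) are neighbours on chromosome 12. *Mest* (6:30723547-30748465), *Plagl1* (10:13060504-13131694) and *Grb10* (11:11930508-12038683, minus strand) stand alone, the first and second of them on the plus strand. No counted gene overlapped a member on its own strand. *Igf2*, *Mest*, *Cdkn1c* and *Ndn* overlapped counted genes on the opposite strand, and the sources used here do not say whether counting used strand, so part of their UMIs could belong to those genes.

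Of the 10 members, 4 are hosts of microRNAs, which can bind messenger RNAs through their seed. These RNAs were not measured in this assay, and they are shown because their hosts *H19*, *Igf2* and *Mest* had the largest ratios from 3 to 7 dpi in all mesenchymal cells and *Meg3* had the most UMIs of the members there. The mature RefSeq sequences (GRCm38.p6) follow with the seed, bases 2 to 8, in capitals, and the 9 sequences held 9 different seeds.
miR-675-3p of *H19*: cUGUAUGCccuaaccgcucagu
miR-675-5p of *H19*: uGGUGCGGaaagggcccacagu
miR-483-3p of *Igf2*: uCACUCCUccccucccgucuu
miR-483-5p of *Igf2*: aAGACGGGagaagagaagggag
miR-335-5p of *Mest*: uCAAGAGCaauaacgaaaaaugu
miR-335-3p of *Mest*: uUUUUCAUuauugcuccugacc
miR-1906 of *Meg3*: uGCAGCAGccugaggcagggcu
miR-770-5p of *Meg3*: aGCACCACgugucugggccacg
miR-770-3p of *Meg3*: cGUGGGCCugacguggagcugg

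The libraries held 12031, 11722, 15160 and 23752 cells from Uninjured to 7 dpi, of which 10307, 9641, 12604 and 20301 were kept after filters. Kept cells had median totals of 8638, 5896, 4338 and 3049 UMIs, and a UMI (unique molecular identifier) counts 1 captured transcript. Pairs of libraries shared 30 to 95 cell barcodes, and from 96.2% of kept cells in Uninjured to 74.8% at 7 dpi could be given a class. A cell joined a class when at least 3 of the 8 markers of that class were detected and no other class had as many. The mesenchymal cells, with the chondrocytes, which had a UMI in at least 3 cartilage markers, numbered 8284, 3642, 5495 and 12546, and all 3829 chondrocytes were at 7 dpi. Mesenchymal cells carried *Dcn* at 2849 to 18184 CPM and *Ptprc*, the leukocyte antigen CD45, at 0.931 to 17.3 CPM. CPM is the UMIs of a gene divided by all UMIs of the summed cells and scaled to counts per 1000000. Brackets give 95% intervals, which cover counting error alone and not the spread between cells or between animals.

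In mesenchymal cells all 10 genes were lower at 1 dpi than in Uninjured, *Grb10* least so, 9 were higher at 7 dpi than at 1 or 3 dpi, and *Ndn* was lower at each later time. *H19* was at 44.8 CPM in Uninjured, 10.3 at 1 dpi, 71.1 at 3 dpi and 866 at 7 dpi. *Igf2* was at 18.99, 4.31, 3.95 and 57.1 CPM at the same times. *Mest*, which encodes a protein of the hydrolase family, was at 44.3, 32.9, 40.7 and 713 CPM. For all 3 genes the 7 dpi library stood far above the other libraries, and *H19* alone was already above its Uninjured level at 3 dpi.

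The pair on chromosome 12 differed from one another in size. *Dlk1*, which encodes a membrane protein that restrains adipocyte formation, was at 29.4, 8.87, 4.55 and 36.0 CPM. *Meg3* had the most UMIs of the members in mesenchymal cells of every library, at 2067, 1223, 1018 and 1473 CPM. Levels here are UMIs and are not set per length, so this order of members is one of counted molecules. *Malat1*, another RNA that stays in the nucleus, moved in the same directions as *Meg3*, at 33892, 20706, 12435 and 23112 CPM. *Neat1*, the other RNA read for RNA quality, was at 481, 681, 585 and 731 CPM. It was higher at 1 dpi than in Uninjured, where *Meg3* was lower. The part of RNA quality in the *Meg3* values was not tested.

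The zinc finger factors were highest late. *Peg3* was at 74.2, 40.3, 62.1 and 402 CPM, and *Plagl1*, a regulator of other imprinted genes, was at 49.9, 29.4, 25.1 and 166.5 CPM. Both stood far above their earlier levels at 7 dpi.

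Among the genes known as brakes on growth the courses differed. *Cdkn1c*, an inhibitor of cyclin-dependent kinases, was at 269, 101, 83.9 and 324 CPM. *Grb10*, an adaptor that dampens signalling from the insulin and IGF1 receptors, was at 104.5, 94.7, 154 and 274 CPM. *Ndn*, which encodes the MAGE family protein necdin, was at 289.5, 234, 199 and 102 CPM. *Cdkn1c* thus returned to near its Uninjured level, *Grb10* went beyond its own and *Ndn* stayed below. With the chondrocytes of 7 dpi counted, *Cdkn1c* was slightly above Uninjured, at a log2 ratio of 0.27. Without that class it was slightly below, at -0.12.

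**Figure D1:**
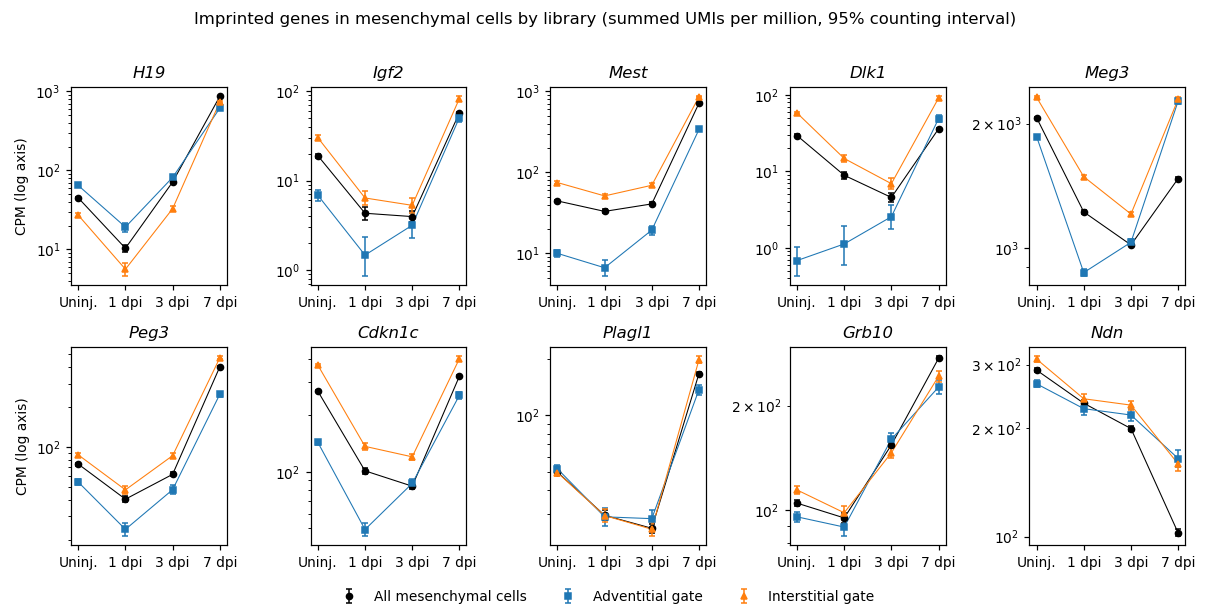
CPM (log axis) of each gene in each library for all mesenchymal cells with chondrocytes (black), the Adventitial gate (blue) and the Interstitial gate (orange), with 95% counting intervals. 9 of the 10 genes are higher at 7 dpi than at 3 dpi in all mesenchymal cells, *Mest* from 40.7 to 713 CPM, while *Ndn* is lowest at 7 dpi.

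From Uninjured to 1 dpi all 10 genes were lower, and 4 passed 2-fold: *H19* was 4.35-fold lower, *Igf2* 4.41-fold, *Dlk1* 3.31-fold and *Cdkn1c* 2.66-fold. Of all 13850 genes with at least 50 UMIs over both libraries, 4.22% were at least 2-fold lower and 8.14% at least 2-fold higher. The median log2 ratio was -0.82 over the members and 0.17 over all genes. A scaling centred on all genes with at least 100 UMIs moves each log2 ratio of this step by 0.16, in the direction of a larger fall.

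From 1 to 3 dpi *H19* was 6.90-fold higher (log2 ratio 2.79 [2.63, 2.95]) and no other member passed 2-fold upwards, against 5.95% of all genes. No member was at least 2-fold lower, against 5.49% of all genes, with *Dlk1* nearest at a log2 ratio of -0.97 [-1.21, -0.72]. *Grb10* was at a log2 ratio of 0.70 [0.64, 0.76] and *Peg3* at 0.62 [0.53, 0.71].

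From 3 to 7 dpi 7 of the 10 genes were at least 2-fold higher, against 11.2% of all 14667 genes, and none was at least 2-fold lower, against 7.85%. The median log2 ratio was 2.71 over the members and -0.077 over all genes. *Mest* was 17.5-fold higher (log2 ratio 4.13 [4.07, 4.19]), *Igf2* 14.45-fold (3.85 [3.66, 4.06]) and *H19* 12.2-fold (3.61 [3.56, 3.65]). *Dlk1*, *Plagl1*, *Peg3* and *Cdkn1c* were 7.91-fold, 6.64-fold, 6.48-fold and 3.86-fold higher. *Meg3*, *Grb10* and *Ndn* stayed within 2-fold. Without the chondrocyte class all 7 genes were still at least 2-fold higher. The mesenchymal cells left carried the summed cartilage markers at 38.9 CPM at 3 dpi and at 597 CPM at 7 dpi. The part of cartilage RNA in these ratios was not tested.

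Against Uninjured, 6 genes were at least 2-fold higher at 7 dpi, against 17.5% of all genes, namely *H19* (19.3-fold), *Mest* (16.1-fold), *Peg3* (5.42-fold), *Plagl1* (3.34-fold), *Igf2* (3.01-fold) and *Grb10* (2.62-fold). *Ndn* alone was at least 2-fold lower (2.83-fold), against 11.5%. *Cdkn1c* and *Dlk1* were close to their Uninjured levels, at log2 ratios of 0.27 [0.24, 0.29] and 0.29 [0.21, 0.37].

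The share of cells with a transcript rose with the level. To hold depth equal, each cell was thinned to 1000 UMIs, which left out 349 of the 12546 cells at 7 dpi and at most 51 in another library. In thinned mesenchymal cells *H19* was found in 2.43% in Uninjured, 0.660% at 1 dpi, 3.31% at 3 dpi and 45.3% at 7 dpi, against 8.66%, 2.42%, 13.1% and 73.4% at full depth. *Mest* was found in 4.26%, 3.71%, 4.48% and 39.2% of thinned cells, against 22.4%, 17.1%, 17.8% and 70.2% at full depth. *Igf2* was found in 1.71%, 0.550%, 0.312% and 4.85% of thinned cells, against 7.53%, 3.10%, 2.55% and 13.7% at full depth. *H19* and *Mest* thus came to be detected in a large share of mesenchymal cells, whereas *Igf2* stayed with a small share.

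The concentration of the UMIs, taken at full depth, showed the same contrast. It follows in part from the share of cells with a UMI and is not separate evidence. In Uninjured the 5% of mesenchymal cells with the most *H19* held 91.4% of its UMIs, and up to 111 UMIs lay in 1 cell. At 7 dpi the top 5% held 38.2%. For *Igf2* the top 5% held 85.9% in Uninjured and 74.3% at 7 dpi, and for *Dlk1* they held 87.8% and 83.6%. The UMIs of *H19* were thus spread over more cells at 7 dpi, while those of *Igf2* and *Dlk1* stayed concentrated.

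The pair *H19* and *Igf2* did not keep a fixed proportion. *H19* had 2.36 UMIs for each *Igf2* UMI in Uninjured, 2.39 at 1 dpi, 18.0 at 3 dpi and 15.2 at 7 dpi. *Meg3* had 70.4, 138, 224 and 41.0 UMIs for each *Dlk1* UMI. In thinned cells at 7 dpi *Igf2* was found in 6.95% of the 5523 cells with *H19* and in 3.10% of the other cells. *Mest* was found in 46.7% of the cells with *H19* and in 32.9% of the other cells. This was not particular to *Mest*, since *Peg3* was found in 31.5% and 22.5% and *Cdkn1c* in 23.3% and 18.3%. At the earlier times few thinned cells had *H19* (201, 24 and 180), and *Mest* was not found more often in them. It was in 3.98% of cells with *H19* and 4.27% of the others in Uninjured, 0% and 3.73% at 1 dpi, and 4.44% and 4.48% at 3 dpi. *Igf2* was in 5.97% and 1.61% in Uninjured, and in no cell with *H19* at 1 or 3 dpi. Only 20 and 17 thinned cells had *Igf2* at those times. With so few cells, these absences are not read as a change with time.

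Transcripts of the highly expressed members were also counted in cells that should lack them at 7 dpi. In B cells *H19* was at 3.17, 0, 5.57 and 55.6 CPM across the libraries and *Mest* at 0, 1.07, 0 and 71.1 CPM. The matrix gene *Col1a1* was at 1344 CPM in B cells at 7 dpi, against 206 in Uninjured. Thinned B cells at 7 dpi had *H19* in 7.43%, against 45.3% of mesenchymal cells (9.14% and 73.4% at full depth, with median depths of 1455 and 4028 UMIs). Over the 4 immune classes of 7 dpi *H19* lay between 44.9 CPM in NK and T cells and 122 CPM in monocytes and macrophages, and *Mest* between 32.2 and 103 CPM in the same classes. Levels in this range in other classes of 7 dpi are read as background. *Dlk1* had no UMI in the 186 B cells of 7 dpi, below a floor of 3 UMIs (9.27 CPM).

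**Figure D2:**
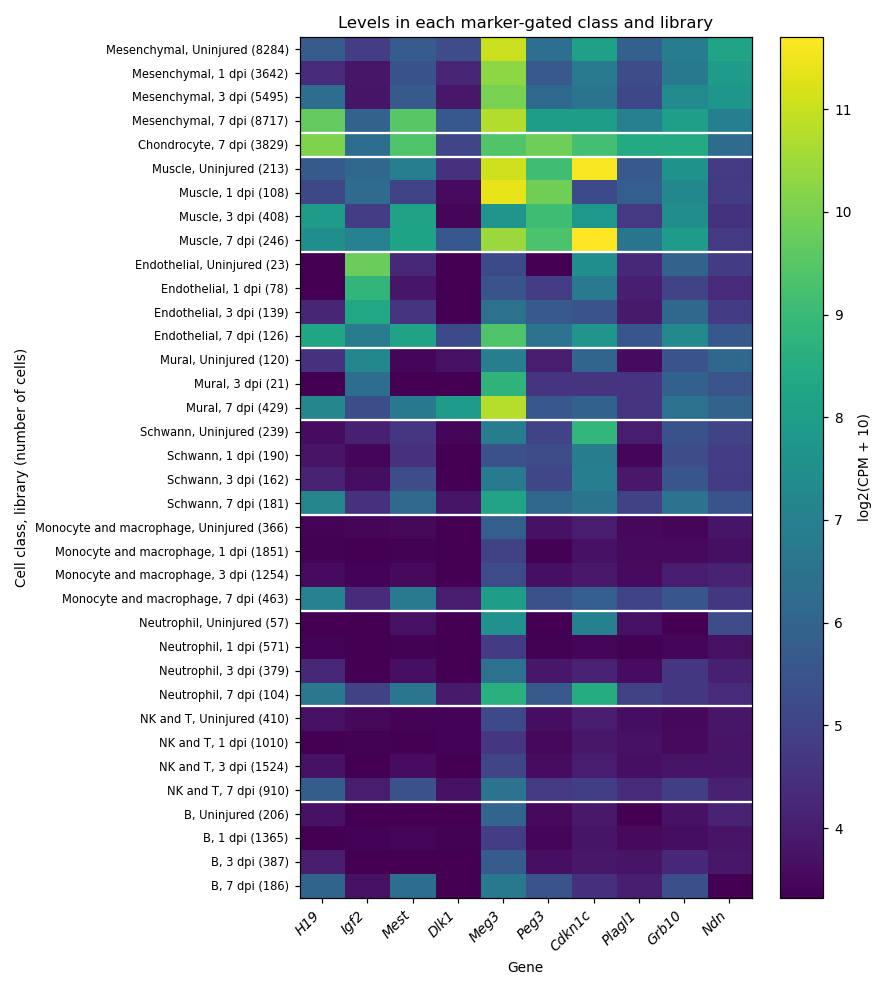
Colour gives log2(CPM + 10) of each gene (columns) in each class and library with at least 20 cells (rows, number of cells in brackets). *H19* and *Mest* are brightest in mesenchymal cells and chondrocytes at 7 dpi, *Cdkn1c* in muscle cells of Uninjured and 7 dpi, and *Igf2* in endothelial cells before 7 dpi.

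Resident fibroblasts of muscle divide into adventitial cells around vessels and interstitial cells between fibres, and here they were gated by 2 of 4 markers (*Pi16*, *Dpp4*, *Sema3c* and *Anxa3* or *Smoc2*, *Col15a1*, *Hsd11b1* and *Lpl*). In Uninjured muscle the 3256 Adventitial and 4346 Interstitial cells differed most in *Dlk1*, at 0.679 CPM (22 UMIs) and 58.0 CPM (2257 UMIs). *Mest* was at 9.99 and 74.8 CPM, *Igf2* at 6.85 and 30.2 CPM, and *Cdkn1c* at 144 and 371 CPM. *H19* went the other way, at 64.4 CPM in Adventitial and 27.1 CPM in Interstitial cells. In all, 4 members were at least 2-fold higher in Interstitial cells, against 10.7% of all genes, and 1 was at least 2-fold lower, against 6.14%.

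The difference between these gates was smaller at 7 dpi for all 5 of these genes, in gates that then held chondrocytes too (938 of the 1133 Adventitial and 1525 of the 1997 Interstitial cells lay outside the chondrocyte class). *Dlk1* was 85.4-fold higher in Interstitial than Adventitial cells of Uninjured and 1.86-fold at 7 dpi (48.8 and 90.8 CPM). *Mest* was 7.48-fold and 2.53-fold higher at these times, *Igf2* 4.41-fold and 1.635-fold, and *Cdkn1c* 2.58-fold and 1.57-fold. *H19* was 2.38-fold lower in Interstitial cells of Uninjured and 1.20-fold higher at 7 dpi. Whether these changes of the difference exceed the spread between animals could not be tested.

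The late rise of *H19* and *Mest* was seen within each gate. From 3 to 7 dpi *H19* was 7.53-fold higher in Adventitial, 22.5-fold in Interstitial, 6.90-fold in Osteochondral and 37.8-fold in Tendon cells, the last from 18 UMIs at 3 dpi. *Mest* was 17.5-fold, 12.4-fold, 72.0-fold and 13.8-fold higher in the same gates. Osteochondral cells carried at least 2 of *Lrrc15*, *Tnn*, *Adam12* and *Runx2*, Tendon cells at least 2 of *Tnmd*, *Scx*, *Thbs4* and *Mkx*, and in both of these gates cells of the chondrocyte class were left out. The Osteochondral cells differed in depth, with median totals of 22428 UMIs at 3 dpi (330 cells) and 8116 at 7 dpi (2089 cells). The part of depth in their ratios was not tested. *Ndn* differed between all cells and gates: against Uninjured it was 1.61-fold lower in Adventitial and 1.95-fold lower in Interstitial cells at 7 dpi, so the 2-fold drop of all mesenchymal cells was not reached within either.

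At 7 dpi several members differed between cartilage and the other mesenchymal cells. *Peg3* was at 914.5 CPM [900, 929] in the 3829 chondrocytes and at 251 CPM [247, 255] in the other 8717 mesenchymal cells. *Plagl1* was at 337 and 116 CPM and *Cdkn1c* at 580 and 248 CPM. *Meg3* went the other way, at 681 and 1708 CPM, and so did *Ndn*, at 66.7 and 113 CPM. *H19* (1069 and 806 CPM) and *Mest* (661 and 728 CPM) were at like levels in both.

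*Peg3*, *Plagl1* and *Cdkn1c* were also higher in chondrocytes than in the 2089 Osteochondral cells outside the chondrocyte class. *Meg3* stayed within 2-fold in this comparison. Here 4 members were at least 2-fold higher in chondrocytes, against 6.12% of all 12540 genes, and none was at least 2-fold lower, against 2.66%. The log2 ratios were 2.16 [2.11, 2.21] for *Peg3*, 1.80 [1.72, 1.87] for *Plagl1*, 1.67 [1.61, 1.73] for *Cdkn1c* and 1.19 [1.05, 1.33] for *Igf2*. The Osteochondral cells were also lower in these genes than the Interstitial cells, with chondrocytes left out of the Osteochondral side alone. Against the 1997 Interstitial cells of 7 dpi, of which 1525 lay outside the chondrocyte class, 6 members were at least 2-fold lower in Osteochondral cells, against 6.73% of all 12303 genes, and none was at least 2-fold higher, against 2.14%. They were *Dlk1* (90.8 to 18.5 CPM, 4.905-fold lower), *Igf2* (82.7 to 31.3 CPM), *Peg3* (470 to 205 CPM), *Cdkn1c* (401.5 to 182 CPM), *Ndn* (159 to 75.7 CPM) and *Plagl1* (197.5 to 97.2 CPM). The summed cartilage markers were at 2746 CPM in these Interstitial cells and at 386.8 CPM in those outside the chondrocyte class. The part of chondrocytes in these ratios and in the count of 6 was not tested.

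Hypertrophic chondrocytes, which have left the cell cycle and express *Col10a1*, differed from the other chondrocytes by at least 2-fold in *Cdkn1c*, and by less in the other members. *Cdkn1c* was at 1032 CPM [1004, 1060] in the 1066 chondrocytes with a *Col10a1* UMI and at 384 CPM [373, 395] in the 2763 without. *H19* was at 819 and 1177 CPM and *Mest* at 488 and 736 CPM, lower in cells with *Col10a1*. *Peg3* was at 917 and 913 CPM, a log2 ratio of 0.006 [-0.043, 0.055]. The split uses detection of *Col10a1*, so deeper cells enter the first group more readily.

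**Figure D3:**
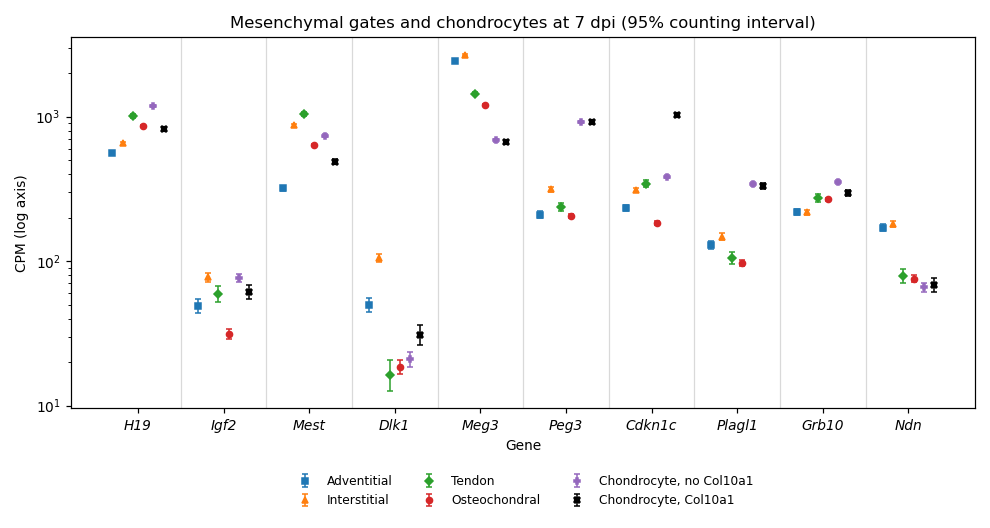
CPM (log axis) at 7 dpi in 4 mesenchymal gates outside the chondrocyte class and in chondrocytes without and with *Col10a1* UMIs, with 95% counting intervals. Chondrocytes are highest in *Peg3* and *Plagl1* and lowest in *Meg3*, and those with *Col10a1* are highest in *Cdkn1c*, at 1032 CPM.

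Promoters of 8 members were in the RefSeq table (GRCm38.p6, 250 bases before to 50 after the start). The motif GGGGCCCC, bound by the Plagl1 protein, was found on either strand in 1.08% of all 32851 promoters and, among members, in that of *Peg3*, a gene that was high together with *Plagl1* in chondrocytes. It is shown with the motif in capitals (chr7:6730370-6730669, minus strand) as a description of the letters and not as a bound site. Whether Plagl1 acts on *Peg3* was not tested.
*Peg3* promoter: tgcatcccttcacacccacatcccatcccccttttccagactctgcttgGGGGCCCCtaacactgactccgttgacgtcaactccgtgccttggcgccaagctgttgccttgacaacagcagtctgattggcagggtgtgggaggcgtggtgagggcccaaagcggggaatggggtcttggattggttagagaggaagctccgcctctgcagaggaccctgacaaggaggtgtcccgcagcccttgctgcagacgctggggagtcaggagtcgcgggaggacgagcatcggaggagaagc

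Proliferation was read from 6 genes of late cell cycle, and a mesenchymal cell with at least 2 of them was called cycling (114, 138, 948 and 2818 cells). The gate rests on detection, and cycling cells were deeper than the others, with median totals of 14843 and 9164 UMIs in Uninjured, 18948 and 8232.5 at 1 dpi, 18392 and 5597 at 3 dpi, and 4963.5 and 3703.5 at 7 dpi. The part of depth in the ratios was not tested. The mix of Adventitial, Interstitial and other gates was not held equal between cycling and other cells, and its part was not tested either. At 7 dpi chondrocytes were 705 of the 2818 cycling and 3124 of the 9728 other cells. The 7 dpi ratios are over both classes together, and the part of this mix was not tested. Against the other mesenchymal cells of its own library, *Cdkn1c* was lower in cycling cells in 4 of 4 libraries, with log2 ratios of -1.26 [-1.47, -1.07], -2.39 [-2.80, -2.00], -1.93 [-2.07, -1.80] and -1.04 [-1.09, -0.99]. *Meg3* was lower in all 4 as well, at -0.93, -1.76, -0.80 and -0.60. *Igf2*, *Mest*, *Peg3*, *Plagl1*, *Grb10* and *Ndn* also had ratios below 0 in each library, although the interval of *Igf2* at 1 dpi (9 UMIs in cycling cells) includes 0. From Uninjured to 7 dpi the median log2 ratio over the members was -0.940, -0.688, -0.744 and -0.629. Over all genes it was 0.053, -0.047, -0.025 and -0.018. The share of all genes below 0 in each library was not counted.

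*Dlk1* and *H19* were the exceptions. *Dlk1* was lower in cycling cells in 3 libraries and higher in 1. *H19* was higher in cycling cells of Uninjured, 1 dpi and 3 dpi, at log2 ratios of 1.12 [0.89, 1.34], 1.87 [1.49, 2.23] and 1.02 [0.93, 1.11], and lower at 7 dpi, at -0.30 [-0.33, -0.27]. The levels were 94.9 and 43.6 CPM in cycling and other cells of Uninjured, 31.3 and 8.59 at 1 dpi, 108 and 53.0 at 3 dpi, and 740 and 911 at 7 dpi. At least 2-fold lower in cycling cells were 4, 3, 3 and 2 members from Uninjured to 7 dpi, against 9.75%, 13.9%, 10.3% and 2.37% of all genes.

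**Figure D4:**
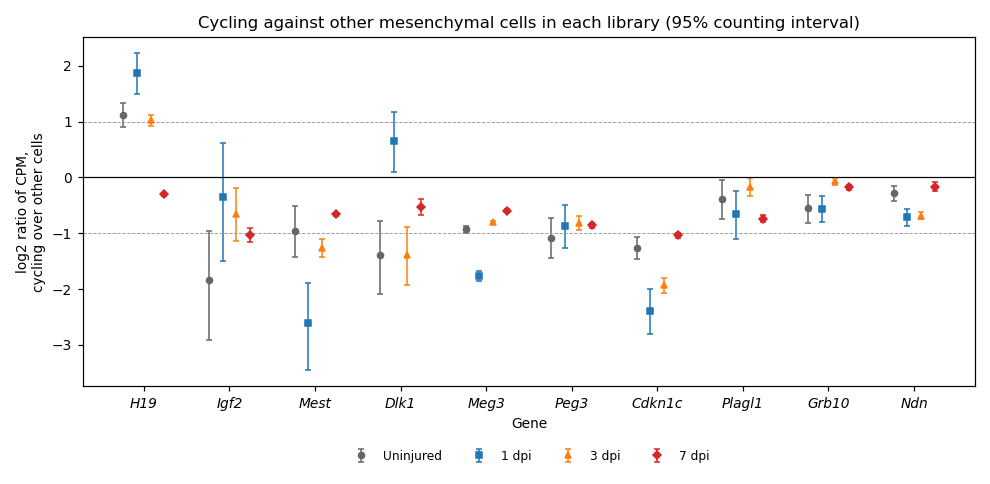
log2 ratio of CPM of cycling over other mesenchymal cells for each gene and library, with 95% counting intervals, a line at 0 and dashed lines at 2-fold. *Cdkn1c* lies below 0 in each library, and *H19* lies above 0 in the first 3 libraries and at -0.30 at 7 dpi.

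In Uninjured some members had a higher CPM in another class than in mesenchymal cells, although mesenchymal cells held most of their UMIs. Muscle cells of Uninjured were above mesenchymal cells in *Peg3* (546 and 74.2 CPM), *Mest* (109 and 44.3 CPM) and *Grb10* (188 and 104.5 CPM). They were also above them in *Cdkn1c* and *Igf2*. Muscle cells had 5154 and 100 UMIs of these 2 genes among 1625505 UMIs of all genes. Mesenchymal cells had 21128 and 1489 among 78421245. Muscle and mesenchymal cells were close in *Meg3* (2201 and 2067 CPM) and in *H19* (41.8 [32.5, 53.0] and 44.8 [43.4, 46.3] CPM, whose counting intervals overlap). *Ndn* and *Dlk1* were highest in mesenchymal cells, with mural cells next for *Ndn* (59.1 CPM) and muscle next for *Dlk1* (12.9 CPM, 21 UMIs). Schwann cells, the glia of nerves, had *Cdkn1c* at 453 CPM (419 UMIs) in Uninjured and at 108, 109 and 82.6 CPM after injury, so the level after injury was lower at each time.

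Muscle cells differed most by stage in *Cdkn1c*. *Pax7* marks satellite cells, the stem cells of muscle, and *Myog* marks differentiating myoblasts. In Uninjured, *Cdkn1c* was at 18.9 CPM (21 UMIs) in 169 cells with *Pax7* and no *Myog*, and at 10302 CPM (5133 UMIs) in 40 cells with *Myog*. At 3 dpi the levels were 39.7 and 522 CPM, and at 7 dpi 67.2 and 7810 CPM. No muscle cell had *Myog* at 1 dpi, when *Cdkn1c* in the 108 muscle cells was at 26.7 CPM. *Cdkn1c* was thus high wherever *Myog* was present, and least so at 3 dpi.

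*Peg3* went the other way, at 714, 971, 725 and 894 CPM in *Pax7* cells from Uninjured to 7 dpi and at 163, 386 and 275 CPM in *Myog* cells of Uninjured, 3 and 7 dpi. In *Pax7* cells it varied little with time, unlike in mesenchymal cells. *Meg3* in *Pax7* cells was at 2515, 2744, 335 and 1717 CPM, a level 8.19-fold lower at 3 dpi than at 1 dpi. In all muscle cells *Malat1* was at 27346, 27702, 6871 and 17125 CPM, lowest at 3 dpi too, and its part in the drop of *Meg3* was not tested.

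In muscle *Mest* was already high at 3 dpi, when it was near its Uninjured level in mesenchymal cells. *H19* in *Pax7* cells was at 55.9 CPM (62 UMIs), 27.3 (14 UMIs), 161 (418 UMIs) and 141 (90 UMIs). *Mest* was at 99.2, 23.4, 436 and 255 CPM, so that it was 18.6-fold higher at 3 dpi than at 1 dpi, where it had 12 UMIs. At 3 dpi *H19* was at 406 CPM in *Myog* cells, and *Mest* at 174. The *Pax7* and *Myog* levels of *H19* at 7 dpi (141 and 205 CPM) lie close above the range of the immune classes. *Ndn* stayed between 13.5 and 17.8 CPM in muscle cells of all libraries, far below mesenchymal cells.

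**Figure D5:**
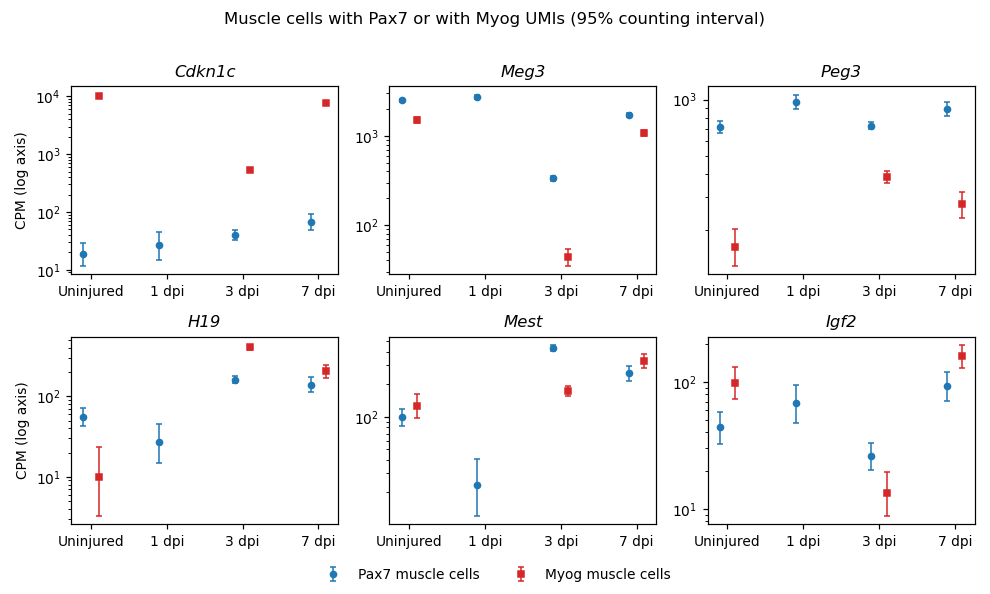
CPM (log axis) of 6 genes in muscle cells with *Pax7* and no *Myog* (blue) and with *Myog* (red), with 95% counting intervals. *Myog* cells are above *Pax7* cells in *Cdkn1c* and below them in *Peg3* at each time, and *Meg3* is lowest at 3 dpi in both.

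*Igf2* was the only member highest in endothelial cells among the classes of Uninjured, 1 dpi and 3 dpi. It was at 868 CPM [704, 1059] in Uninjured (97 UMIs, 9 of 23 cells), 450 CPM [392, 514] at 1 dpi (219 UMIs, 33 of 78 cells), 311 CPM [267, 361] at 3 dpi (177 UMIs, 47 of 139 cells) and 106 CPM [80.7, 137] at 7 dpi (59 UMIs, 26 of 126 cells). The level was lower at each later time. Although endothelial cells were few, they held 49.7% of all *Igf2* UMIs of the kept cells at 1 dpi and 32.3% at 3 dpi, and 1.11% at 7 dpi. Mesenchymal cells held 34.0%, 38.9% and 81.4%.

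Endothelial cells of 7 dpi also carried RNA of other cells. *Col1a1* was at 35.8, 20.5, 468 and 5821 CPM in them and the summed mesenchymal markers at 44.8, 39.0, 186.5 and 729 CPM. The summed endothelial markers were at 8442, 5346, 4765 and 4601 CPM. *Igf2* fell by 1.56 on the log2 scale from 3 to 7 dpi, and the part of mesenchymal RNA in this fall was not tested. *H19* (302 CPM) and *Mest* (273 CPM) in endothelial cells of 7 dpi were counted beside the same markers, and the part of mesenchymal RNA in them was not tested either.

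Mural cells, the pericytes and smooth muscle of vessels, had *Dlk1* at 2.96 CPM (3 UMIs) in Uninjured and 232 CPM [215, 250] (666 UMIs, 429 cells) at 7 dpi, above mesenchymal cells of that library (39.55 CPM without chondrocytes). *Meg3* was at 110 and 1736 CPM in them. *Igf2* was at 135 CPM in Uninjured and 30.7 CPM at 7 dpi. Mural cells of 7 dpi carried *Col1a1* at 4808 CPM, against 104.5 in Uninjured, and the part of mesenchymal RNA in these values was not tested. In the mesenchymal gates of 7 dpi outside the chondrocyte class *Dlk1* was at 16.2 to 105 CPM. Mural cells of 1 and 3 dpi (17 and 21 cells) were too few to follow *Dlk1*, which had no UMI in either, below a floor of 3 UMIs (18.5 and 21.6 CPM).

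Of 30 further imprinted genes 25 had 50 UMIs from 3 to 7 dpi, of which 4 were at least 2-fold higher (*Gnas*, *Zdbf2*, *Usp29* and *Zim1*) and 2 lower (*Dio3* and *Asb4*), against 11.2% and 7.85% of all genes, with a median log2 ratio of -0.078 beside -0.077 over all genes. These counts are near the background. *Gnas*, which encodes the stimulatory G protein subunit, was at 1495, 1164, 1142 and 2607 CPM in mesenchymal cells. *Dio3*, a deiodinase that inactivates thyroid hormone and lies in the domain of *Dlk1* and *Meg3*, was at 7.14, 9.07, 19.5 and 3.87 CPM, highest at 3 dpi. *Zim1*, a neighbour of *Peg3*, was at 11.55, 6.78, 6.88 and 38.1 CPM in mesenchymal cells. *Rian*, transcribed next to *Meg3*, was at 232, 174, 160.5 and 240 CPM. From Uninjured to 1 dpi 1 of 25 was at least 2-fold higher (*Nap1l5*) and none was lower, against 8.14% and 4.22% of all genes, and from 1 to 3 dpi 2 of 23 were higher (*Dio3* and *Peg12*) and 2 lower (*Nap1l5* and *Asb4*), against 5.95% and 5.49%. Against Uninjured 2 of 26 were higher at 7 dpi (*Usp29* and *Zim1*) and 2 lower (*Sgce* and *Asb4*), against 17.5% and 11.5%, with a median log2 ratio of -0.15. *Sgce*, a sarcoglycan, was at 133, 81.4, 63.6 and 52.2 CPM, a course like that of *Ndn*.

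Of 11 receptors and regulators linked to IGF2, 8 or 9 had 50 UMIs in each step of mesenchymal cells. *Igf1r*, the receptor through which IGF2 signals, was at 57.4, 75.2, 62.2 and 42.0 CPM in mesenchymal cells, and *Igf2r*, which clears IGF2 and is itself imprinted, at 111, 130, 103 and 108 CPM. From Uninjured to 1 dpi 1 of 8 was at least 2-fold higher (*Irs2*) and 1 lower (*Igf2bp3*, 15.3 to 6.52 CPM), against 8.14% and 4.22% of all genes. From 1 to 3 dpi 1 of 9 was higher (*Hmga2*) and 1 lower (*Plag1*), against 5.95% and 5.49%. Of 8 measured from 3 to 7 dpi, *Irs1* was at least 2-fold higher (18.7 to 43.8 CPM) and *Igf2bp2*, an RNA-binding protein, at least 2-fold lower (14.1 to 5.41 CPM), against 11.2% and 7.85% of all genes. Against Uninjured 1 of 9 was higher at 7 dpi (*Hmga2*) and 2 were lower (*Igf2bp2* and *Plag1*), against 17.5% and 11.5%. With so few genes measured, these counts are not a result about the list. *Irs2*, an adaptor of the insulin receptor, was at 76.2, 155.5, 81.7 and 47.3 CPM, highest at 1 dpi. *Hmga2*, a chromatin protein, had 6, 24, 128 and 112 UMIs, and *Plag1*, a factor that can activate *Igf2*, had 122, 45, 29 and 14 UMIs. From 3 to 7 dpi *Igf1r* and *Igf2r* stayed within 2-fold and *Plag1* had 29 and 14 UMIs. The part of these genes in the late rise of *Igf2* was not tested.

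Over 32 sums of class and library with at least 100 cells, the gene most like *H19* among 13028 genes was *Mest* (Pearson's r of 0.95 on log2(CPM + 10)), followed by *C1qtnf3* and *Mdk*. *Meg3* was most like *Rian* (0.98), *Peg3* most like *Capn6* (0.93) and *Sox9* (0.92), the latter a marker of the chondrocyte class, *Plagl1* most like *Pdgfrl* (0.94), *Grb10* most like *Rbfox2* (0.94) and *Ndn* most like *C1ra* (0.95). *Igf2* was most like *Ptprk* (0.91), and *Cdkn1c* (*Spats2l*, 0.85) and *Dlk1* (*Gli1*, 0.81) had the least similar partners. Classes of 1 library share its depth and background, and these values are given as descriptions.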

How the data were processed

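The authors aligned reads with Cell Ranger 5.0.0 (STAR) and deposited raw UMI counts per gene and cell; the submitters' notes name mm10 and Seurat 3.1.1. The protocol allows for discarding reads to even out libraries, and the sources used here do not say if this came before deposit. Cells within 2 SD of the library mean in log10 UMIs and genes, with at most 10% mitochondrial UMIs, were kept after removal of the 7.5% highest Scrublet scores (scanpy 1.11.5). Classes came from detected markers (10 panels of 8). Counts were summed over cells of a class and library and divided by their total (CPM). Intervals are exact Poisson or Clopper-Pearson at 95% and ratio intervals are exact binomial, and the ratio rule was tested on simulated data. With 1 library per time point no p-value was computed. A gene was called at 2-fold with at least 50 UMIs over both sums. Python 3.11.15, numpy 2.4.6 and scipy 1.17.1 were used. Gene identifiers matched GENCODE M21 for 99.6%.

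The members, gene lists and markers were chosen with earlier results of these data known. The text names the 10 members, the genes of both lists that pass 2-fold or are receptors, neighbours in the genome, the genes nearest in pattern, *Malat1* and *Neat1*. *Dcn*, *Ptprc* and *Col1a1*, as checks of cell identity, were named after their values had been seen. Alternatives tried were marker minimums of 2 and 4, no doublet removal, every deposited barcode, means of per-cell CPM, totals without the 50 most abundant genes, centring on the median log2 ratio, thinning to 1000 UMIs, no chondrocytes, and minimums of 10 and 1 UMIs. Values within the Adventitial and Interstitial gates were added after the data had been seen.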

Additional observations from a re-analysis of the deposited data

Results flagged for a closer look

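*Igf2* moved in opposite directions in endothelial and mesenchymal cells from 3 to 7 dpi, which is why it is listed here. In endothelial cells the log2 ratio was -1.56 [-2.01, -1.12], from 177 to 59 UMIs, and in mesenchymal cells it was 3.85, from 213 to 4323 UMIs. The difference between the classes was not tested, since each class had 1 library per time point, and the brackets cover counting error alone.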

How the results depend on the processing

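Over 9 other settings, 183 member ratios past 2-fold were recomputed 1472 times; 1471 kept their direction and 1391 were still past 2-fold. The exception was *Plagl1* in *Pax7* muscle cells from 1 to 3 dpi, at 0.058 in cells thinned to 1000 UMIs, against -1.13. The number of members at least 2-fold lower in mesenchymal cells from 1 to 3 dpi was 1 in place of 0 with at least 2 markers, without doublet removal and with every deposited barcode, and from 3 to 7 dpi it was 1 in place of 0 with means of per-cell CPM and in thinned cells. Within the Adventitial gate 4 members in place of 1 were at least 2-fold higher from 1 to 3 dpi, within the Interstitial gate 1 was lower, and from Uninjured to 7 dpi none (0) was lower within either gate in place of 1. Within the Adventitial gate *Dlk1* from Uninjured to 1 dpi was at 0.72 (22 and 13 UMIs), against -1.73. The cause of these differences was not tested. No leave-one-out or paired analysis was possible because each time point was 1 library. Values of endothelial and mural cells rest on few cells.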
